A study of Mus musculus with 24 samples.

Results

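Histone marks were examined at 9 basic helix-loop-helix (bHLH) transcription factor genes of neural lineages, *Atoh1*, *Neurog1*, *Neurog2*, *Neurog3*, *Neurod1*, *Neurod2*, *Olig1*, *Olig2* and *Ptf1a*, in cells of the fetal mouse gonad. The genes were listed by name for their role in neural development, with no threshold on a measured value, and they are 9 of the 22367 protein-coding genes of the annotation. ChIP-seq of 4 cell populations was done with antibodies to H3, H3K4me3 and H3K27me3, with 2 replicates of each of the 12 combinations (24 samples). The question put to the data was whether promoters that carry both marks in E10.5 progenitors come to carry H3K27me3 alone at E13.5, when the supporting cells of testis and ovary have differentiated.

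The populations were XY progenitor and XX progenitor cells (E10.5, SF1-eGFP), Sertoli cells (E13.5 XY, Sox9-CFP) and pregranulosa cells (E13.5 XX, TESM-CFP, labelled granulosa cells), all on a C57BL/6 x CD1 background. Each was isolated by fluorescence-activated cell sorting on the reporter named, so a population holds the cells in which that reporter is active. Gonads were pooled and chromatin of *Drosophila* S2 cells was added as carrier. The deposited data are 8 peak lists, with H3K4me3 and H3K27me3 listed separately for every population, and each list joins both replicates. No spread between replicates can therefore be computed, and no test compares populations. A list gives the positions of calls over H3 but no level, so 2 marks at 1 promoter may lie on the same chromatin or in different cells of the population, and these cannot be told apart. The lists hold no expression values, so whether the genes were silent in these cells was not tested.

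bHLH factors bind DNA as dimers, and those of the neural lineages commit precursors to neuronal, glial or, for a few, pancreatic fates. H3K4me3 is deposited by Trithorax group complexes and is found at promoters that are active or open to activation, whereas H3K27me3 is the mark of Polycomb repressive complex 2. Promoters with both are called bivalent, and in embryonic stem cells many developmental regulators, neural bHLH genes among them, are known to be in that state.

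The members lie on 7 autosomes (mm9, GENCODE M1), and all have a short gene body, from 1659 bp (*Neurog1*) to 4234 bp (*Neurod2*). The annotation gives 1 coding exon at each but *Ptf1a*, with 2, and *Neurod1*, with 3 distinct coding exons counted over its 2 transcripts together. The promoter window was the transcription start site (TSS) ± 2 kb, 4001 bp long, and a window counted as marked from 1 bp of overlap with a region of called peaks. To show the sequence at which the marks were called, the 100 bp before the TSS are given for *Olig2* (chr16:91225695-91225794, + strand) and *Ptf1a* (chr2:19367190-19367289, + strand), the members without H3K4me3 in 1 population, and for *Atoh1* (chr6:64679040-64679139, + strand) and *Neurog2* (chr3:127335954-127336053, + strand), the members with the longest H3K4me3 cover. Capitals mark CG, which reads the same on both strands, and each sequence runs 5′ to 3′ towards the gene.
Olig2: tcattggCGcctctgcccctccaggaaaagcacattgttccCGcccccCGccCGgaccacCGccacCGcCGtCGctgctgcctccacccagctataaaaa
Ptf1a: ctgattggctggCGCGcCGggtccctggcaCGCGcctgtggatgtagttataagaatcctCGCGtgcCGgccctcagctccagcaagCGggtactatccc
Atoh1: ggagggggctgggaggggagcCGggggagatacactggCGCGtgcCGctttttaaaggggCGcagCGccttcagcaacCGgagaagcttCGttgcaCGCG
Neurog2: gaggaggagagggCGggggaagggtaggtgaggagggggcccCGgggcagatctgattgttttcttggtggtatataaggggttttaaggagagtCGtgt

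These stretches hold 8 CG in *Olig2*, 9 in *Ptf1a*, 10 in *Atoh1* and 3 in *Neurog2*. Over all 9 members the count ran from 3 to 10 with a median of 8, against a median of 4 over coding genes, of which 82.9% had at least 1 CG in the same stretch. Over the whole 4001 bp window the members held 94 (*Neurod1*) to 247 CG (*Olig2*) with a median of 173, and the coding windows had a median of 85. *Neurog2* had 246 CG in its window and *Olig1* 214, while *Neurog3*, with 125, was the only other member under 168.

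H3K27me3 covered the promoter window of all 9 members from end to end in all 4 populations, 4001 of 4001 bp in each list. The same held for every gene body, of which 100% lay under H3K27me3 in every list. Of all coding genes, 10.2% had a window covered over its whole length in all 4 populations (exact 95% interval 9.84 to 10.6%), and 3.41% had a gene body so covered (3.17 to 3.65%). Any overlap with H3K27me3 was found at 23.0% of coding promoters in the XY and 24.8% in the XX progenitor list, and at 23.5% in the Sertoli and 23.7% in the pregranulosa list. No member lost any part of this cover between E10.5 and E13.5 in either lineage. In the lists with a header, H3K27me3 peaks were called at a size of 5000 bp, longer than the window and every member gene body. A loss over a shorter stretch may therefore not show in this cover.

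H3K4me3 was called within the same windows at 7 of 9 members in XY progenitor cells and at 9 of 9 in each of the other 3 populations. The shares of coding promoters with H3K4me3 were 64.2% in the XY progenitor, 66.0% in the XX progenitor, 64.9% in the Sertoli and 66.3% in the pregranulosa list. Because H3K27me3 was present throughout, 7 members were bivalent in XY progenitor cells and all 9 in XX progenitor, Sertoli and pregranulosa cells. The corresponding shares of all coding promoters were 20.4% (19.9 to 20.9%), 22.4% (21.8 to 22.9%), 18.7% (18.2 to 19.3%) and 20.4% (19.9 to 20.9%). Bivalent in all 4 populations were 7 of the 9 members and 13.6% of coding promoters.

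*Olig2*, which specifies motor neurons and oligodendrocytes, and *Ptf1a*, required for the exocrine pancreas and for inhibitory neurons of cerebellum and spinal cord, were the members with H3K27me3 alone in XY progenitor cells. H3K27me3 alone was rare among coding promoters, at 2.66% in XY progenitor, 2.43% in XX progenitor, 4.81% in Sertoli and 3.26% in pregranulosa cells. H3K4me3 covered 0 bp of the *Olig2* window in XY and 1607 bp in XX progenitor cells, 1803 bp in Sertoli and 2455 bp in pregranulosa cells. At *Ptf1a* the 4 values were 0, 2671, 2846 and 1976 bp in the same order. The *Ptf1a* regions over the TSS also held the start of *Gm13336*, a transcript at +1011 bp on the opposite strand, so the mark cannot be assigned to 1 of the 2 genes. The region nearest to the *Ptf1a* TSS in XY progenitor cells lay just outside the window, from +2443 to +3717 bp, where the other 3 populations also had one. The XY progenitor lists were the least deeply sequenced, with 10162534 H3K4me3 tags against 49254553 in XX progenitor and 31104760 in Sertoli cells (unknown for pregranulosa cells). The part of depth in the missing calls was not tested.

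No bivalent member came to carry H3K27me3 alone at E13.5. From XY progenitor to Sertoli cells, 7 of 7 bivalent members stayed bivalent, against 73.7% of the 4558 coding promoters bivalent at E10.5 (72.44 to 75.01%), and 0 of 7 turned into H3K27me3 alone, against 3.36% (2.85 to 3.92%). From XX progenitor to pregranulosa cells, 9 of 9 stayed bivalent, against 80.4% of 5004 (79.2 to 81.5%), and 0 of 9 turned into H3K27me3 alone, against 1.70% (1.36 to 2.10%). With 7 and 9 genes and background shares this low, a count of 0 is near the background and is no result about the members. The one class change seen was the opposite one. *Olig2* and *Ptf1a* went from H3K27me3 alone in XY progenitor cells to bivalent in Sertoli cells, as did 18.7% of the 595 coding promoters that started so (15.6 to 22.0%). Both were bivalent in XX progenitor cells at the same stage, as were 32.1% of those 595 (28.4 to 36.0%).

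**Figure D1:**
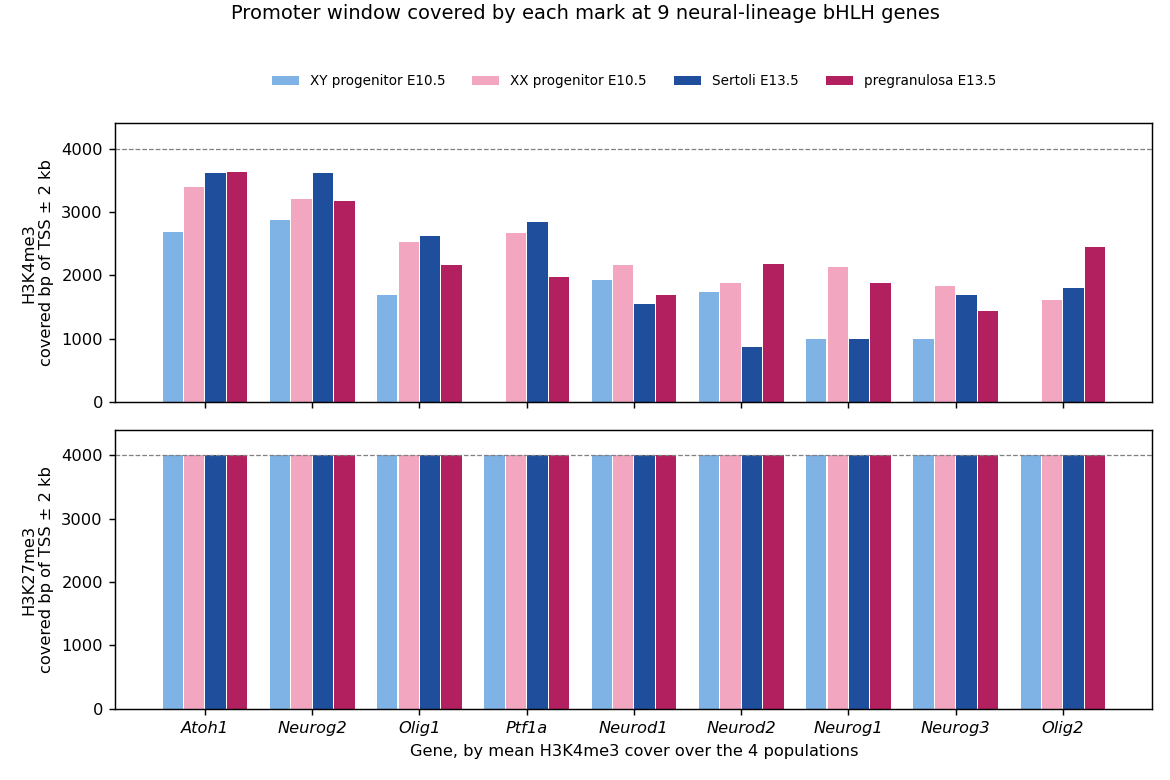
Bars give the bp of TSS ± 2 kb (vertical axis from 0, dashed line at the full 4001 bp) covered by H3K4me3 (top) and H3K27me3 (bottom) for each gene in the 4 populations, 1 pooled list per bar. H3K27me3 fills every window, whereas H3K4me3 ranges from 0 bp at *Ptf1a* and *Olig2* in XY progenitor cells to 3635 bp at *Atoh1* in pregranulosa cells.

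How much of each window H3K4me3 covered separated the members. *Atoh1*, needed for cerebellar granule neurons and inner ear hair cells, had 2679 bp in XY progenitor, 3399 in XX progenitor, 3622 in Sertoli and 3635 in pregranulosa cells. *Neurog2*, a determination factor of cortical and sensory neurons, had 2880, 3202, 3616 and 3173 bp in that order. These 2 genes had the 2 longest values in each list and did not overlap the other members in any list. Their means over the 4 lists were 3334 bp for *Atoh1* and 3218 bp for *Neurog2*, followed by 2255 bp for *Olig1*, and the other 6 members lay between 1466 bp (*Olig2*) and 1873 bp (*Ptf1a*). The ranges of *Atoh1* and *Neurog2* over the 4 lists overlapped, and the ranges of the other 7 members all overlapped each other. That of *Ptf1a*, 0 to 2846 bp, also overlapped that of *Atoh1*, 2679 to 3635 bp. These ranges are taken over different populations and measure no spread between replicates.

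Among the other neurogenins, *Neurog1*, which specifies cranial sensory neurons, had 1001, 2129, 1001 and 1874 bp of H3K4me3 in XY progenitor, XX progenitor, Sertoli and pregranulosa cells. *Neurog3*, the determination factor of pancreatic endocrine cells, had 1001, 1830, 1692 and 1432 bp. A value of 1001 bp is 1 peak at the caller's peak size, its usual minimum, and 48.2% of the XY progenitor and 31.7% of the Sertoli H3K4me3 regions were no wider. The calls at *Neurog1* in XY progenitor and Sertoli cells and at *Neurog3* in XY progenitor cells thus rest on 1 peak each. Without such regions, H3K27me3 alone would be listed at 4 members in XY progenitor cells (*Neurog1*, *Neurog3*, *Olig2* and *Ptf1a*) and at 1 in Sertoli cells (*Neurog1*).

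The NeuroD genes, which drive differentiation after commitment, had H3K4me3 in the gene body, as did the other members wherever their window was marked. *Neurod1*, a factor of neurons and pancreatic endocrine cells, had 1933, 2160, 1553 and 1699 bp in the 4 lists, always as 1 region over the TSS and another in the gene body that began between +1069 and +1817 bp. XX progenitor cells had a further region upstream, from -3524 to -1662 bp. The start of *Cerkl* lies at -34 bp from the *Neurod1* start on the same strand, so the mark there cannot be assigned to 1 of the 2 genes. The region in the gene body held the start of the lincRNA *Gm17325* (at +2766 bp, opposite strand) in all 4 lists, and cannot be assigned either. *Neurod2*, a factor of forebrain neurons, had 1742, 1883, 874 and 2175 bp. Its region began downstream of the TSS at +259 bp in XY progenitor, +118 bp in XX progenitor and +1127 bp in Sertoli cells, and it held the TSS in pregranulosa cells only, where it began at -174 bp. With a window of TSS ± 1 kb *Neurod2* would therefore be bivalent in XY progenitor cells and carry H3K27me3 alone in Sertoli cells, the only member to make that change at that window.

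*Olig1*, which acts in oligodendrocyte maturation, had 1697, 2531, 2627 and 2164 bp of H3K4me3 in XY progenitor, XX progenitor, Sertoli and pregranulosa cells. H3K4me3 held the TSS itself at 6 members in XY progenitor cells, 8 in XX progenitor, 8 in Sertoli and 9 in pregranulosa cells. Over gene bodies, cover at members with a marked window ran from 10.51% (*Neurog3* in XY progenitor cells) to 97.8% (*Neurog2* in XX progenitor cells) and was 50% or more in 25 of 34 values. No share over all coding genes stands beside these TSS and gene body counts, so they only describe the members. The median window cover of the members was 1697, 2160, 1803 and 2164 bp in the 4 lists. Bivalent coding promoters had medians of 1993, 2624, 2170 and 2427.5 bp, and those with H3K4me3 alone had 2287, 2888, 2666 and 2858 bp, so the member median was the lowest of the 3 in every list. In XY progenitor cells the sets are unlike. The member median there includes *Olig2* and *Ptf1a* at 0 bp, whereas both coding sets hold only promoters with H3K4me3.

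From XY progenitor to Sertoli cells H3K4me3 cover was longer at 6 members, shorter at 2 (*Neurod1* by -380 bp, *Neurod2* by -868 bp) and equal at *Neurog1*. Of the 14974 coding promoters with H3K4me3 in either list, 68.6% had a longer and 29.3% a shorter cover in Sertoli cells. The sign turned at *Neurod1* with the widest 75% of regions (621 bp) and with regions within 5 kb joined (231 bp), and at *Neurog3* with that joining (-141 bp). From XX progenitor to pregranulosa cells it was longer at 3, *Olig2* (848 bp), *Neurod2* (292 bp) and *Atoh1* (236 bp), and shorter at 6, by -29 bp at *Neurog2* to -695 bp at *Ptf1a*. Of 15153 coding promoters, 43.3% had a longer and 52.7% a shorter cover in pregranulosa cells, so the members' counts lay near the background in both lineages. Opposite changes in the lineages were seen at 5 of the 9 members and at 42.7% of the coding promoters with H3K4me3 in any list. At *Olig2* the gain became -130 bp with the widest 75% of regions, and with joining *Neurod2* and *Neurog2* had 4001 bp at both stages. The lists of each pair differ in depth or have an unknown depth, and the median H3K4me3 region of the whole list was 1255 bp wide in XY progenitor, 1697.5 in XX progenitor, 1517 in Sertoli and 1529 in pregranulosa cells. These list medians moved the same way as the larger number of members in each lineage, and their part in the differences was not tested.

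H3K27me3 over the members formed wide regions. Their widths, measured over the TSS, had a median of 47166 bp in XY progenitor, 33010 in XX progenitor, 45897 in Sertoli and 47886 in pregranulosa cells. Coding genes with a TSS inside an H3K27me3 region had medians of 8382, 10052.5, 11861 and 11466 bp. The narrowest member region of each list still ranked within the widest 6.53%, 12.7%, 15.1% and 15.3% of its regions.

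**Figure D2:**
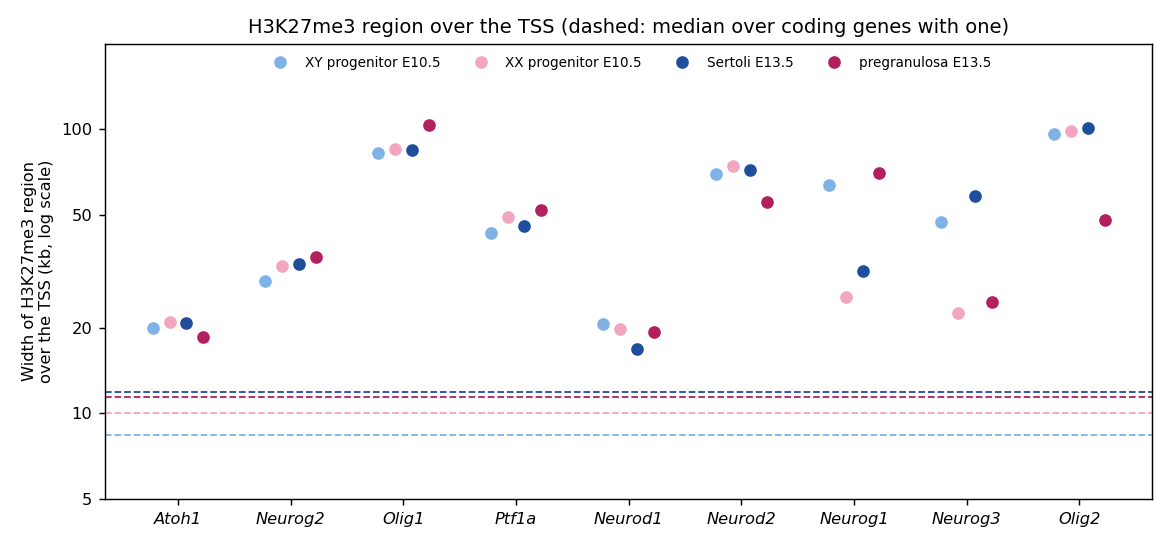
Points give the width in kb (log axis) of the H3K27me3 region that holds the TSS of each gene, 1 point per population, and dashed lines the median over all coding genes with such a region in that population. Every point lies above all 4 dashed lines, and *Neurog1*, *Neurog3* and *Olig2* differ most between populations.

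The width was steady at some members and not at others. *Atoh1* had a region of 20.01, 20.94, 20.79 and 18.65 kb in XY progenitor, XX progenitor, Sertoli and pregranulosa cells. *Neurod1* had 20.6, 19.9, 16.9 and 19.4 kb, *Neurog2* 29.3, 33.0, 33.5 and 35.5 kb, and *Ptf1a* 43.2, 49.2, 45.9 and 52.2 kb. *Neurod2* lay in 69.4, 74.1, 72.2 and 55.6 kb, which also held the start of *Ppp1r1b*, a signalling inhibitor of striatal neurons.

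*Neurog1* had 63.7, 25.7, 31.7 and 70.2 kb. The shorter values arose at a break in the gene's downstream flank. In XX progenitor cells the region ended at +9681 bp and the next began at +12717 bp, in Sertoli cells they lay at +9314 and +12142 bp, and in XY progenitor and pregranulosa cells 1 region ran through. *Neurog3*, with 47.2, 22.6, 58.1 and 24.6 kb, was split on its upstream flank, where the XX progenitor region began at -9338 bp and the pregranulosa region at -11457 bp while the XY progenitor and Sertoli regions began at -34787 and -36058 bp. As called, both XX populations thus had the shorter region over the *Neurog3* TSS. The promoter and gene body lay inside the region over the TSS in every list. Beyond the break H3K27me3 resumed in both, with a region from -35870 to -13612 bp in XX progenitor cells. In pregranulosa cells it ran from -38377 to -17152 bp. The *Neurog3* break was shorter than 5 kb in XX progenitor cells, so joining regions within 5 kb closes it there but not in pregranulosa cells. Both *Neurog1* breaks were also shorter than 5 kb and close with that joining.

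Relative to E10.5, the member regions were wider at 7 of 9 in Sertoli cells with a median ratio of 1.04, against 79.2% and 1.28 over the 3545 coding genes with a region at both stages. In pregranulosa cells 5 of 9 were wider with a median ratio of 1.06, against 60.8% and 1.07 over 4187 coding genes. The largest departures were *Neurog1*, with ratios of 0.497 in the XY and 2.74 in the XX lineage, and *Olig2*, with 0.486 in the XX lineage. The H3K27me3 lists used 6470151 tags in XY progenitor, 33185400 in XX progenitor and 44446456 in Sertoli cells. The pregranulosa list was already joined and its depth is unknown. The part of depth and of list processing in the widths and their differences between populations was not tested.

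*Olig1* and *Olig2* share 1 locus on chromosome 16, with the *Olig2* TSS at -44219 bp from the *Olig1* TSS. *Olig1* lay in a region of 82.9, 85.1, 84.8 and 103.8 kb in XY progenitor, XX progenitor, Sertoli and pregranulosa cells. *Olig2* lay in a neighbouring region of 96.4, 98.6, 101.2 and 47.9 kb. The regions were parted by a gap in all 4 lists, of 5205, 1723, 2542 and 2736 bp, and the stretch from -19147 to -17425 bp of the *Olig1* TSS (1723 bp) was free of H3K27me3 in all of them. No annotated gene overlaps that stretch. In all populations but XY progenitor cells the gap was shorter than 5 kb, so that joining regions within 5 kb closes it there. An H3K4me3 region lay at the *Olig1* side of the gap, at -14707 to -13358 bp in XY progenitor cells, where it reached into the gap, and beside it at -14872 to -13616 bp in Sertoli and -15153 to -13331 bp in pregranulosa cells, and none was listed there in XX progenitor cells.

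**Figure D3:**
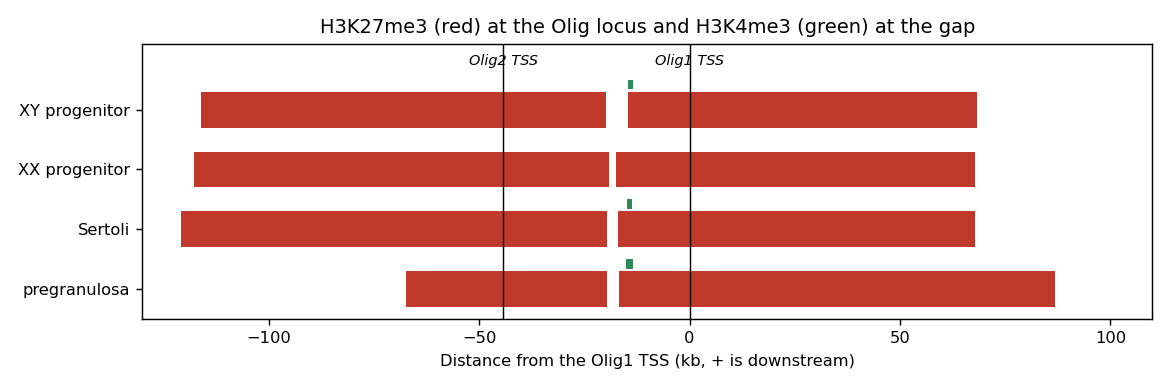
Red bars are the H3K27me3 regions that hold the *Olig2* and *Olig1* TSS (vertical lines) in each population, green bars the H3K4me3 region at its *Olig1* side, on an axis of kb from the *Olig1* TSS. The gap is present in all 4 populations and is 1723 to 5205 bp wide, and the *Olig2* region is 47.9 kb in pregranulosa cells against 96.4 to 101.2 kb elsewhere.

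H3K4me3 was also called away from the promoters, inside the same H3K27me3 regions. *Atoh1* had a region between +4065 and +6654 bp in all 4 populations, and *Neurog1* had H3K4me3 between -8934 and -5641 bp in all 4, neither with another annotated start. Around *Neurog2*, H3K4me3 was listed between -8357 and -6062 bp in 3 populations (not in XY progenitor cells) and between +6177 and +8880 bp in 3 (not in Sertoli cells). *Neurod2* had such regions in all 4 lists between -10468 and -7894 bp and between -13677 and -12119 bp, besides that over the *Ppp1r1b* start. Upstream of *Olig2*, H3K4me3 was listed between -4548 and -2571 bp in Sertoli and between -3570 and -2319 bp in pregranulosa cells, and in XX progenitor cells from -2978 to -1978 bp, at the edge of the window. *Ptf1a* had a region between -14944 and -12953 bp, over the start of *Gm13344*, in the 3 populations that also had H3K4me3 at its promoter.

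**Figure D4:**
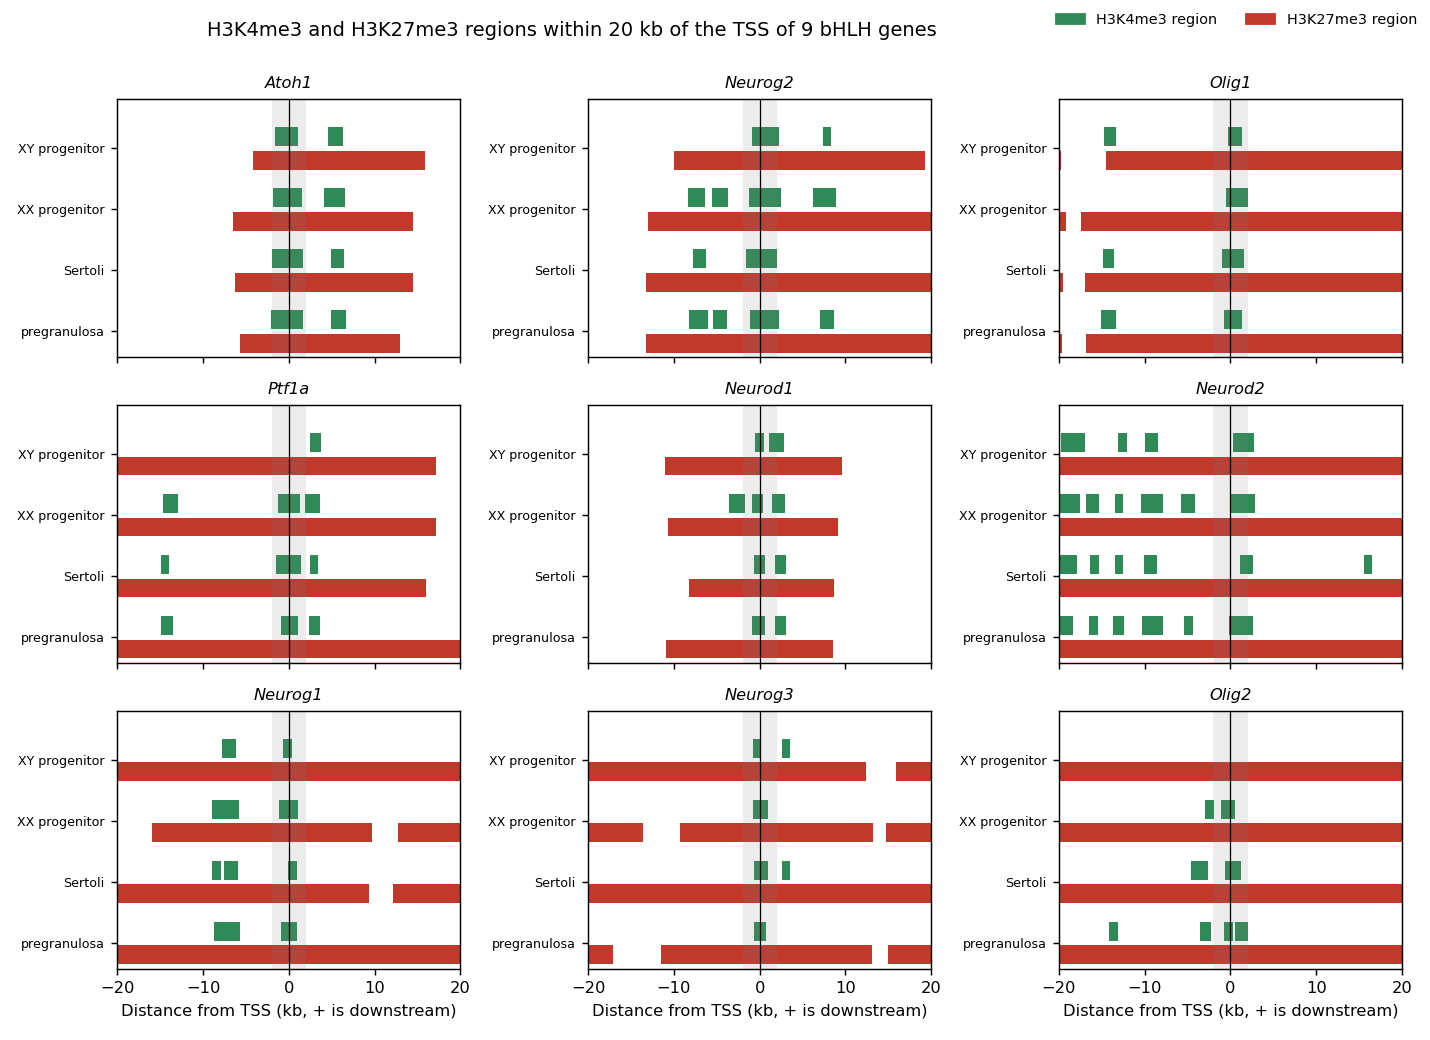
Each panel shows 20 kb on either side of the TSS (horizontal axis in kb, downstream to the right) of a gene, with H3K4me3 regions in green above H3K27me3 regions in red for the 4 populations and the ± 2 kb window shaded. H3K27me3 spans the shaded window everywhere, the green region is missing from it at *Olig2* and *Ptf1a* in XY progenitor cells, and at *Neurod2* the green region lies to the right of the TSS in 3 populations.

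CG content was set beside the classes, since the members are rich in CG. Of all coding windows, 9957 (44.5%) held at least as many CG as the lowest member. Of these, 33.5% were bivalent in XY progenitor, 35.2% in XX progenitor, 29.9% in Sertoli and 31.7% in pregranulosa cells, and nearly all others had H3K4me3 alone (64.2 to 68.7%). Bivalent coding windows had a median of 118 to 122 CG in the 4 lists, those with H3K4me3 alone 110 to 111, those with H3K27me3 alone 45 to 54 and those with neither mark 29 to 31. *Olig2* and *Ptf1a*, with 247 and 172 CG, were well above the median of the H3K27me3-alone class in which XY progenitor cells placed them.

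Other bHLH lists were read with the same windows. Of 9 other neural bHLH genes, 6 were bivalent in XY progenitor, 7 in XX progenitor, 4 in Sertoli and 7 in pregranulosa cells, 4 in all populations and 1 in none. *Neurod4*, a neuronal differentiation factor, had neither mark in any list. *Neurod6* carried H3K27me3 alone in all but pregranulosa cells, where H3K4me3 reached 347 bp into the window, and *Nhlh1* was bivalent in XX progenitor cells only. From XY progenitor to Sertoli cells, 2 of 6 bivalent genes turned into H3K27me3 alone, *Bhlhe23* and *Olig3* (the latter named after its values were seen). From XX progenitor to pregranulosa cells 1 of 7 did so, *Nhlh1*. At *Bhlhe23* H3K4me3 cover was 1541 bp in XY progenitor, 2503 in XX progenitor, 0 in Sertoli and 1584 in pregranulosa cells. The difference between this list and the members was not tested.

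Of 20 bHLH genes of other lineages, 15, 16, 12 and 16 were bivalent in XY progenitor, XX progenitor, Sertoli and pregranulosa cells, with 12 bivalent in all and 4 in none. The muscle determination gene *Myod1* and *Msgn1*, a factor of presomitic mesoderm, turned from bivalent to H3K27me3 alone in Sertoli cells and were bivalent in the other 3 populations. *Myog*, which acts in muscle differentiation, had neither mark but for H3K27me3 in Sertoli cells, and *Scx*, a tendon factor, had H3K4me3 alone in Sertoli cells. Of 10 Hes and Hey repressors, many of them Notch targets that oppose neural bHLH factors, 9, 10, 8 and 9 were bivalent, with 8 bivalent in all. *Hes6* had H3K4me3 alone at E13.5 in both lineages, and *Hes3* H3K27me3 alone in XY progenitor and Sertoli cells.

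Of 6 E protein and Id genes, which encode the general partners and inhibitors of bHLH factors, 2, 3, 2 and 1 were bivalent, and the others had H3K4me3 alone. *Tcf3* was bivalent at E10.5 and had H3K4me3 alone at E13.5, *Id3* was bivalent in XX progenitor and Sertoli cells, and *Id4* was bivalent in all 4 populations. Of 9 widely expressed bHLH-zip genes, 8, 9, 8 and 9 had H3K4me3 alone. *Mnt* in XY progenitor cells and *Mxi1* in Sertoli cells were the bivalent ones. Outside all lists, the coding genes nearest to the members' median pattern over the 8 covered lengths were *Slc22a4*, *Trim2* and *Calcr*, with summed differences of 233, 244 and 280 bp, against 951 (*Neurod1*) to 5511 bp (*Atoh1*) for the members themselves.

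**Figure D5:**
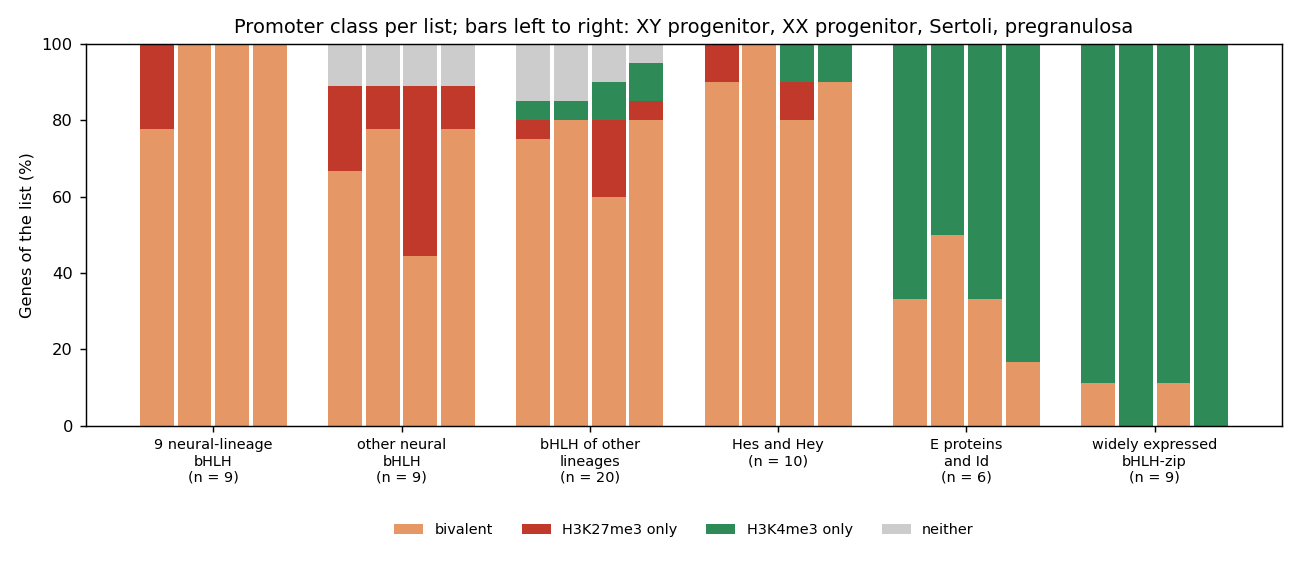
Stacked bars give the percent of genes of each bHLH list (horizontal axis, number matched below it) in each promoter class, for XY progenitor, XX progenitor, Sertoli and pregranulosa cells from left to right. The 9 members are bivalent throughout but for 2 with H3K27me3 alone in XY progenitor cells, whereas the widely expressed bHLH-zip genes carry H3K4me3 alone but for 1 in XY progenitor and 1 in Sertoli cells.

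Markers of the sorted cells were read in the same way. All 4 Sertoli markers (*Sox9*, *Amh*, *Dhh*, *Dmrt1*) had H3K4me3 alone in Sertoli cells and were bivalent in pregranulosa cells. Of 4 pregranulosa markers, all were bivalent in Sertoli cells and 2 (*Wnt4*, *Rspo1*) had H3K4me3 alone in pregranulosa cells, while *Foxl2* and *Fst* stayed bivalent in this window. For *Foxl2*, the paper on these data reports loss of H3K27me3 at the TSS and gene body in pregranulosa cells. It adds that a window of TSS ± 2 kb does not show this loss. All 5 gonadal progenitor markers were bivalent in both progenitor populations. Of 3 endothelial markers, none was marked in 3 populations and 1 (*Cdh5*) had H3K4me3 in pregranulosa cells. Among markers of neurons and neural crest, *Elavl4* had H3K4me3 alone in all 4 lists, *Elavl3* was bivalent in all 4, and *Sox10* had H3K4me3 alone in Sertoli cells. Of 3 germ cell markers, *Dazl* had H3K4me3 alone in all 4 lists, *Ddx4* had neither mark in any, and *Pou5f1* had H3K27me3 alone but for Sertoli cells, where H3K4me3 of 1001 bp made it bivalent. Whether other cells in the sorted fractions contributed to the marks at the members was not tested.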

How the data were processed

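H3, H3K4me3 and H3K27me3 ChIP-seq was performed on sorted cells, 2 replicates in each of 12 groups. Per the submitters' processing notes, reads were processed with Trim Galore, Bowtie and SAMtools on mm9, and peaks called with HOMER (versions not stated). The authors joined replicates and deposited 8 peak lists with start and end positions. The deposited score column holds 1 for every peak, so no level of enrichment was used. Headers of 6 lists give a peak size of 1000 bp (H3K4me3) or 5000 bp (H3K27me3), at least 4-fold enrichment over H3 and over the surrounding sequence, and 1.00e-04 as the Poisson p-value over H3. H3K27me3 lists used 6470151 (XY progenitor), 33185400 (XX progenitor) and 44446456 tags (Sertoli). The 2 pregranulosa lists have no header, and that of H3K27me3 was already joined.

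Overlapping peaks of a list were joined into regions. TSS ± 2 kb and gene bodies came from GENCODE M1 (NCBIM37, the assembly of mm9), chromosomes 1 to 19, X and Y. Sequences were read from that assembly. Shares have exact (Clopper-Pearson) 95% intervals, which cover counting error only. No comparison between populations was tested, since each has 1 pooled list per mark. All 9 members were named, as were at most 4 genes per other list, the first in list order that differed from its commonest class, and the 3 coding genes nearest to the member median. *Tfe3* and *Tfeb* of the bHLH-zip list could not be matched (9 of 11 matched). The members and lists were chosen with earlier results of these data known. Alternatives changed the overlap, the window, the start used, the regions kept and the joining distance. The steps were tested on simulated data. Python 3.11.15, NumPy 2.4.6, SciPy 1.17.1 and matplotlib 3.10.9 were used.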

Additional observations from a re-analysis of the deposited data

Results flagged for a closer look

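H3K4me3 cover of the promoter window moved in opposite directions in the 2 lineages at 5 of the 9 members, against 42.7% of the 15499 coding promoters with H3K4me3 in any list, so the count is near the background. The difference between the lineages was not tested, since each population has 1 pooled list per mark. From XY progenitor to Sertoli cells and from XX progenitor to pregranulosa cells, the change was 2846 and -695 bp at *Ptf1a* (a difference of 3541 bp), 930 and -367 bp at *Olig1* (1297 bp), 691 and -398 bp at *Neurog3* (1089 bp) and 736 and -29 bp at *Neurog2* (765 bp). *Neurod2* went the other way, with -868 and 292 bp (a difference of -1160 bp). With regions within 5 kb joined, *Ptf1a* and *Olig1* kept opposite signs, *Neurog3* had -141 bp in the XY lineage, *Neurog2* and *Neurod2* had no change in the XX lineage, and *Neurod1* came to have opposite signs (3 members in all). With the widest 75% of regions 7 members had them, *Neurod1* and *Olig2* besides these 5. In 4 of the 5 the XY progenitor value was the lowest of the 4 populations, and the XY progenitor H3K4me3 list had the fewest tags of the 3 lists with a header. The part of depth in these differences was not tested.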

How the results depend on the processing

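Other processing left 179 of 194 recomputed counts and medians within 1.5 times the reported value. Of 288 recomputed covers of single windows, 33 left the 95% binomial interval of the reported value. All 33 were H3K4me3 covers, since H3K27me3 filled every member window under each of these settings. That interval treats the bases of a window as independent and measures no spread between samples. The direction of the H3K4me3 change, recomputed after the data were seen, turned at *Neurod1* in the XY lineage (widest 75% of regions, 5 kb joining, and without H3K4me3 regions of 1 peak), at *Neurog3* in the XY lineage (5 kb joining) and at *Olig2* in the XX lineage (widest 75%, and without H3K4me3 regions of 1 peak). H3K27me3 alone in Sertoli cells, reported at 0 members, was found at 1 with TSS ± 1 kb, with the TSS base by itself, with the widest 75% of regions, with an equal covered length per mark, and without H3K4me3 regions of 1 peak, the last an alternative chosen after seeing the data. In XX progenitor cells it was found at 1 member with the TSS base by itself and at 1 with an equal covered length, which also gave 3 in pregranulosa cells. Without H3K4me3 regions of 1 peak it was found at 4 members in XY progenitor cells, against 2. Turns from bivalent to H3K27me3 alone, reported at 0, numbered 1 in the XY lineage with TSS ± 1 kb (*Neurod2*) and with the widest 75% of regions or an equal covered length (*Neurog1* in both). They numbered 2 in the XX lineage with an equal covered length (*Neurog3* and *Neurod1*). Where these alternatives only remove regions or narrow the window, they can take H3K4me3 calls away and add none. Joining regions within 5 kb widened the median H3K27me3 region of the members to 54118 bp in XX progenitor and 72153 bp in Sertoli cells. Replicates could not be left out, because each list joins both. No paired analysis was possible because the result comes from no test. H3K4me3 depth differed between lists, so a missing call, as at *Olig2* and *Ptf1a* in XY progenitor cells, means not detected at this depth.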
